A study of Mus musculus with 77 samples.

Results

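The 10 genes described here are receptors and cytotoxic granule genes of natural killer (NK) cells, measured by RNA sequencing in whole blood. They were Ncr1, Klrb1c, Klrd1, Klrk1, Klre1, Gzma, Gzmb, Prf1, Nkg7 and Eomes, chosen by symbol from the 13084 genes of the blood mRNA file, and all 10 were found there. The blood came from male mice aged 8 weeks of the strains C57BL/6Crl (B6) and DBA/2Crl (D2). Defeated mice had gone through chronic social defeat stress (CSDS) for 10 days, and the study split them by social avoidance into resilient and susceptible mice, while controls were not defeated. There were 5 mice in each of 5 groups, which were B6 control, B6 resilient, B6 susceptible, D2 control and D2 susceptible. Trunk blood was taken 6 to 8 days after CSDS and globin RNA was depleted.

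NK cells are lymphocytes that kill infected or transformed cells without prior sensitization. A balance of activating and inhibitory surface receptors decides whether they release granules that hold perforin, which makes pores in the target membrane, and granzymes, proteases that then trigger cell death. Many of the receptors are C-type lectins encoded side by side in the NK gene complex on mouse chromosome 6, a region known to differ between inbred strains. Cytotoxic T cells also use granzymes, perforin, NKG7 and the receptor NKG2D, so the members are not restricted to NK cells.

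Ncr1 encodes NKp46, an activating receptor, and Klrb1c encodes NK1.1, the antigen commonly used to stain NK cells of B6 mice. Klrd1 encodes CD94, which pairs with NKG2 proteins, and Klrk1 encodes NKG2D, an activating receptor for stress-induced ligands. Klre1 encodes a receptor that pairs with the KLRI proteins. Gzma and Gzmb encode granzymes A and B, Prf1 perforin, Nkg7 a granule membrane protein and Eomes a T-box transcription factor of NK cell development. By the GRCm38 annotation, Klrb1c (chr6:128778485-128789215), Klre1 (chr6:129577905-129585827), Klrd1 (chr6:129591782-129598775) and Klrk1 (chr6:129610323-129623864) are the members of the NK gene complex. The others lie on chromosomes 7 (Ncr1 and Nkg7), 9 (Eomes), 10 (Prf1), 13 (Gzma) and 14 (Gzmb).

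Promoters are shown for the members with an entry called between the strains, Klrb1c, Klrk1, Klre1 and Gzmb, because they share a run of letters. That of Nkg7, which was not called, is shown because it holds the RUNX core and the planned T-box core described below. RefSeq (GRCm38.p6) gives a window from 250 bases before to 50 bases after the start for 9 of the 10 members, Klrd1 being the one without an entry. The core of the RUNX consensus, TGTGGT or ACCACA on the other strand, was in a window of 8 of these 9 genes, all but Eomes, while 18.9% of all 27025 genes of the table had it in any of their windows. This motif was 1 of 3 added after the data and sequences had been seen, so the count is a description. The planned motif, the T-box core GGTGTG or CACACC, was found for 1 of the 9 members, Nkg7, and for 21.4% of all genes. Of the other added motifs, GTGTGA or TCACAC, which shares letters with the T-box core, was found for 4 of 9 members (16.4% of genes), and the ETS motif ACAGGAAG or CTTCCTGT for 0 of 9 (4.06% of genes). A match in these letters is not evidence of binding. Matches of GTGTGA or TCACAC are not marked in the windows. The windows of Klrb1c (chr6:128788592-128788891, minus strand), Klrk1 (chr6:129623815-129624114, minus strand), Klre1 (the first of its 2 windows, chr6:129577963-129578262, plus strand; the other has no match), Gzmb (chr14:56262285-56262584, minus strand) and Nkg7 (chr7:43436888-43437187, plus strand) are written 5′ to 3′, with RUNX core matches in capitals and, for Nkg7, also the T-box core.
Klrb1c: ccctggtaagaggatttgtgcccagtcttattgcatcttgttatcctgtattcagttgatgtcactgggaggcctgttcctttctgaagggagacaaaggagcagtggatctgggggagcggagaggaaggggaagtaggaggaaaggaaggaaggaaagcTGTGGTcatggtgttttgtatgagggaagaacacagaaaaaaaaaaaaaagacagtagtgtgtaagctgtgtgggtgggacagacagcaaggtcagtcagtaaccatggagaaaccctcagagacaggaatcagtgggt
Klrk1: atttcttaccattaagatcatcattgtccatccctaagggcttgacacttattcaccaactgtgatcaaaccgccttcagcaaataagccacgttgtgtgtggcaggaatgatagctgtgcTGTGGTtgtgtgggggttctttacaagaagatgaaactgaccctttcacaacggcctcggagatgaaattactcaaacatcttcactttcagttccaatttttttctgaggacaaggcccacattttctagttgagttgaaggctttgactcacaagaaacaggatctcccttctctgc
Klre1: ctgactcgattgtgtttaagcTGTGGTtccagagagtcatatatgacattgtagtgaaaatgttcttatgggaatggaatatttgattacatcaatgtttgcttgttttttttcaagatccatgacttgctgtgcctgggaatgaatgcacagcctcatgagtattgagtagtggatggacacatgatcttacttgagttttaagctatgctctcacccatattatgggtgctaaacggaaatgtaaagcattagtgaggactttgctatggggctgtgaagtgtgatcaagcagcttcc
Gzmb: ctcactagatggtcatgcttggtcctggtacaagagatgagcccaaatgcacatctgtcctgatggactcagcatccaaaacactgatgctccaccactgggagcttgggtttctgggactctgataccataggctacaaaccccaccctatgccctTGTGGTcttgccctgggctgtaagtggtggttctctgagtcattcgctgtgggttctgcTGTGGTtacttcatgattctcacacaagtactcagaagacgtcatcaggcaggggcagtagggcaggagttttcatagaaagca
Nkg7: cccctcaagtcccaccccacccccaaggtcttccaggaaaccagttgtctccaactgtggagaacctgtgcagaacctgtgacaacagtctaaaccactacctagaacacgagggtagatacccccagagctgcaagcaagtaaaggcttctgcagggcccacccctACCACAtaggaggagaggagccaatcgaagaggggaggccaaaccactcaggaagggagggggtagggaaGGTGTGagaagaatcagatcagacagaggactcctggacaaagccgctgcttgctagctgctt

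In the 25 libraries, 9751603 to 15878495 reads were recovered from the deposited values per mouse. Values below are log2 CPM as deposited, that is reads scaled to the library's effective size on a log2 scale, unless another scale is named. Erythroid, neutrophil, monocyte, B cell, T cell and platelet markers were all detected in every mouse, as blood should hold. For 2 D2 mice the label and the column name disagreed on the group (1 labelled control and 1 labelled susceptible), and labels were followed. D2 control mouse 3 stood apart, with the highest value of its group for 10 of 10 members. Its mean deviation from the group means was 1.07. The members' strain and defeat contrasts of D2 controls are given with and without this mouse. Lower levels of a cell-type gene in blood can come from fewer such cells or from less RNA per cell, and these cannot be told apart here.

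Gzma was the most abundant member per length and Eomes the least. On the scale of log2 CPM per kilobase of exon, the mean over 25 mice was 6.24 ± 0.51 (SD) for Gzma, 4.21 ± 0.39 for Nkg7, 3.89 ± 0.52 for Ncr1 and 3.31 ± 0.48 for Klrd1. Prf1 (2.07 ± 0.43), Klrb1c (2.07 ± 0.72), Gzmb (1.98 ± 1.10), Klrk1 (1.72 ± 0.45) and Klre1 (1.36 ± 0.70) followed within their spread, and Eomes was at 0.63 ± 0.45. The reads behind these values ran from 279 to 2929 per mouse for Gzma but from 10 to 262 for Gzmb, so Gzmb was measured with the larger counting error.

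**Figure D1:**
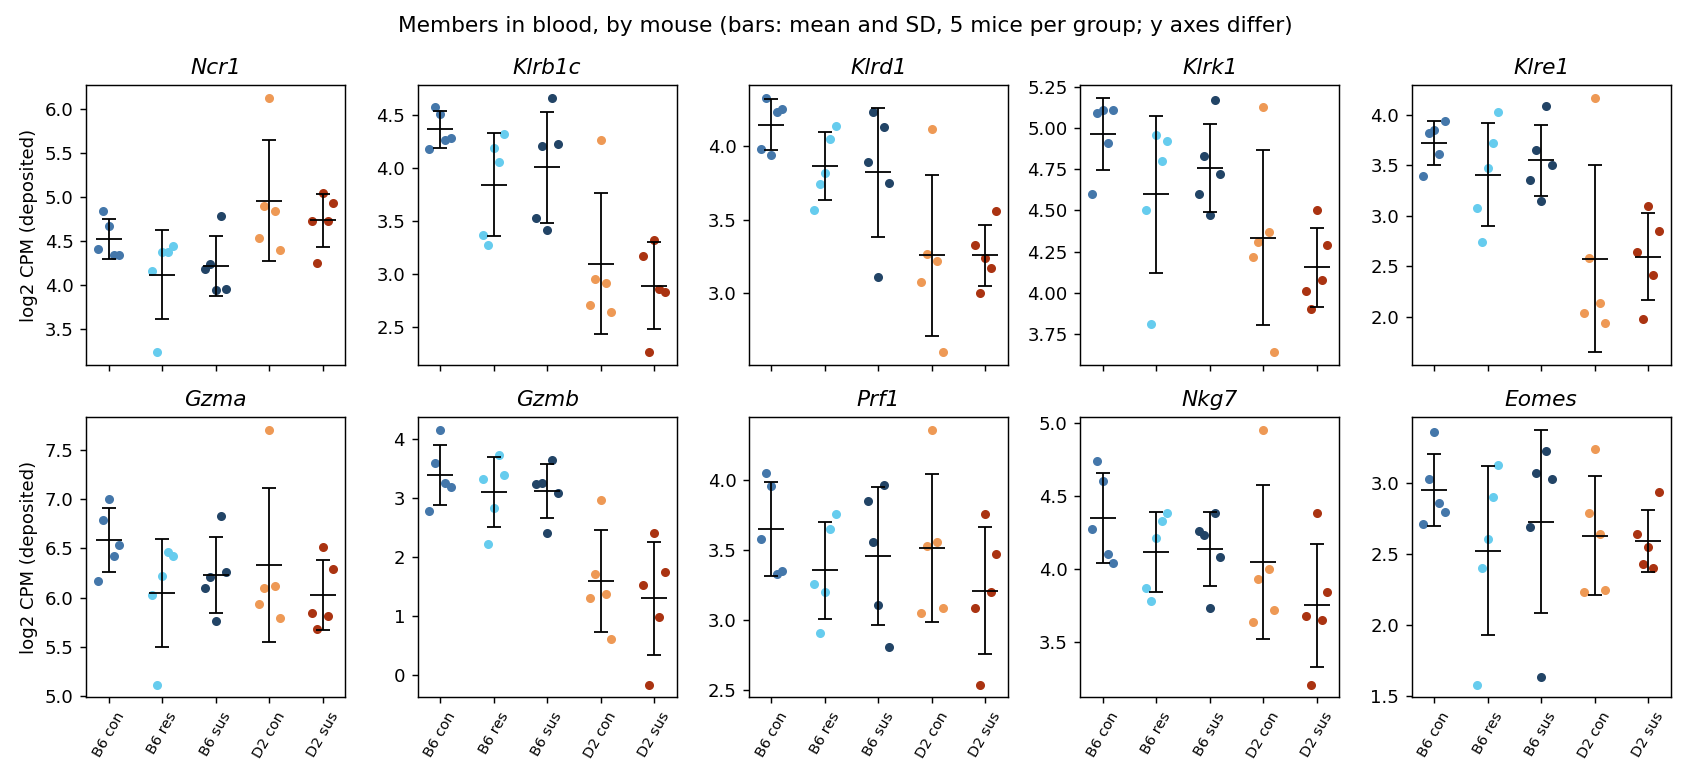
Deposited log2 CPM of each member (y axis, different in each panel) in every mouse of the 5 groups (x axis; con, control; res, resilient; sus, susceptible), with the mean and SD of 5 mice. Klrb1c, Klrd1, Klre1 and Gzmb sit lower in both D2 groups, and D2 control mouse 3 is the high point of every D2 control group.

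The members called in the main fit were called between the strains and not with defeat. Among controls, 5 of 10 members were lower in D2 than in B6 mice and 0 were higher at the study's criteria (limma p under 0.05 and at least 1.2-fold), against a background of 26.4% of all genes called and 11.4% called lower. With Benjamini-Hochberg adjustment over all genes, 4 of the 5 had an adjusted p under 0.05, against 15.5% of genes. For 0 of 10 members were the groups without overlap (12.0% of genes). The 5 were Gzmb and the 4 members of the NK gene complex. The remaining granule genes, Gzma, Prf1 and Nkg7, as well as Eomes and Ncr1, did not pass.

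Gzmb had the largest difference of the members. In B6 controls it was 2.78, 3.59, 4.16, 3.25 and 3.19, and in D2 controls 1.30, 1.71, 2.97, 1.37 and 0.61. All D2 controls but mouse 3 lay below every B6 control. The D2 minus B6 difference was -1.80 (SE 0.41), a 3.49-fold lower level (adjusted p = 0.00301, limma; exact permutation p = 0.0159, two-sided).

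Klrb1c was 4.18, 4.57, 4.51, 4.26 and 4.28 in B6 controls and 2.71, 2.95, 4.26, 2.91 and 2.64 in D2 controls. Again 4 of 5 D2 mice lay below all B6 mice and mouse 3 fell within the B6 range. The difference was -1.27 (SE 0.28), or 2.41-fold lower (adjusted p = 0.00229, limma; exact permutation p = 0.0159).

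Klrd1 was 3.98, 4.33, 3.94, 4.23 and 4.25 in B6 controls and 3.08, 3.27, 4.12, 3.22 and 2.60 in D2 controls, a difference of -0.89 (SE 0.21; adjusted p = 0.00455, limma). Its neighbour Klre1 was 3.39, 3.82, 3.85, 3.61 and 3.94 in B6 and 2.04, 2.58, 4.17, 2.14 and 1.94 in D2 controls. For Klre1 D2 mouse 3 was above every B6 control while the other 4 D2 mice were below all of them, and the difference was -1.15 (SE 0.32; adjusted p = 0.0141, limma). Klrk1 had the smallest of the called differences, with B6 values of 4.60, 5.09, 5.11, 4.91 and 5.11 and D2 values of 4.22, 4.31, 5.13, 4.37 and 3.64. It differed by -0.63 (SE 0.22), which passed the study's criteria but not the adjustment over all genes (adjusted p = 0.0539, limma). The exact permutation p was 0.0238 for Klrd1 and 0.0476 for both Klre1 and Klrk1.

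Ncr1, the receptor gene outside the complex, was the one member with a higher mean in D2 controls. It was 4.41, 4.84, 4.67, 4.34 and 4.34 in B6 and 4.53, 4.90, 6.13, 4.84 and 4.39 in D2 controls, a difference of 0.44 (95% interval -0.10 to 0.98) that did not pass. Gzma differed by -0.25 (-0.86 to 0.36), Nkg7 by -0.30 (-0.76 to 0.16), Eomes by -0.32 (-0.89 to 0.25) and Prf1 by -0.13 (-0.67 to 0.41). These intervals include both no difference and differences as large as that of Klrk1.

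Without D2 control mouse 3 the difference was further below 0 for the 9 members with a lower mean in D2, and that of Ncr1 fell from 0.44 to 0.14. Then 7 members were called, the 5 above with Gzma (-0.59, SE 0.24) and Nkg7 (-0.53, SE 0.20), and Klre1 reached -1.55 (SE 0.24) and Gzmb -2.15 (SE 0.39). Without D2 control mouse 5, Ncr1 was called as higher in D2 (0.58). When values were scaled to each library's total reads, which put the median difference of all genes at 0.175, 3 members were called (Gzmb, Klrb1c and Klre1), and Klrd1 (-0.72) and Klrk1 (-0.46) were not. Under the groups of the column names and without the mice whose label and column disagreed, the same 5 members were called.

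The strain contrast was also made between susceptible mice, which share no animal with the controls. This contrast was added after the data had been seen. The same 5 members were called as lower in D2 and 0 as higher, against 23.7% of all genes called and 12.4% called lower, and 3 of the 5 had an adjusted p under 0.05 (13.9% of genes). Gzmb was 3.24, 3.25, 2.40, 3.65 and 3.08 in B6 susceptible and 1.52, -0.17, 2.40, 0.98 and 1.74 in D2 susceptible mice, a difference of -1.83 (SE 0.41; adjusted p = 0.00262, limma). On these unrounded values the groups did not overlap.

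Klrb1c was 3.53, 4.20, 3.41, 4.66 and 4.22 in B6 susceptible and 3.17, 2.26, 3.32, 2.86 and 2.83 in D2 susceptible mice, with no overlap and a difference of -1.12 (SE 0.28; adjusted p = 0.00697, limma). Klre1 did not overlap either and differed by -0.95 (SE 0.32; adjusted p = 0.0484, limma). For each of these genes the exact permutation p was 0.00794, the smallest that 5 against 5 mice can give. These 3 members are set against 12.3% of all genes that did not overlap between these groups. Klrk1 differed by -0.60 and Klrd1 by -0.56, with adjusted p = 0.0765 and 0.0863 (limma). Their exact permutation p was 0.0159 and 0.0476.

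Ncr1 was again higher on average in D2 (0.52, 95% interval -0.02 to 1.06; adjusted p = 0.228, limma) and did not pass. It was called, with the difference between 0.52 and 0.79, in 8 of 36 settings, among them the groups of the column names, scaling to total reads, and leaving out B6 susceptible mouse 4, D2 susceptible mouse 2, B6 resilient mouse 2 or D2 control mouse 3. Nkg7 was called as lower in D2 in 3 of 36 settings, among them without B6 susceptible mouse 3 (-0.48) or without D2 susceptible mouse 3 (-0.54). With scaling to total reads, which put the median of all genes at 0.254, Gzmb, Klrb1c and Ncr1 were the 3 members called in these mice.

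**Figure D2:**
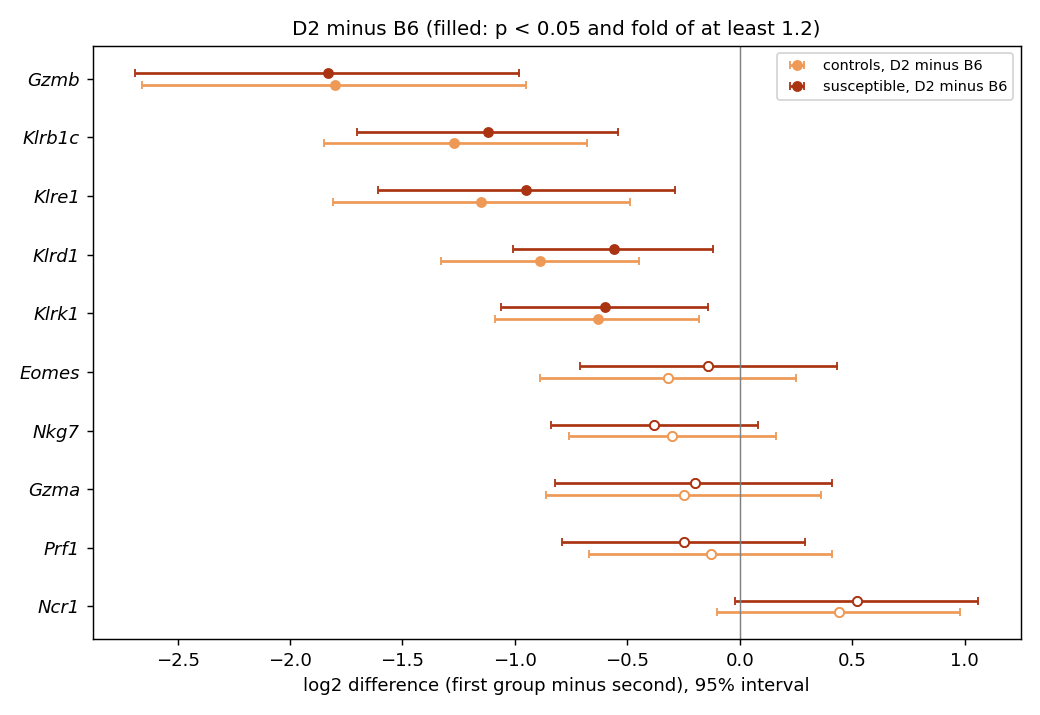
D2 minus B6 difference in log2 CPM (x axis, with 95% interval) of each member (y axis) in controls and in susceptible mice, 5 per group; filled points passed the study's criteria. Gzmb, Klrb1c, Klre1, Klrd1 and Klrk1 are filled in both contrasts and Ncr1 lies on the other side of 0.

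The members were also set against Ncr1 within each mouse, an alternative chosen after its level had been seen. The log2 ratio of Klrb1c to Ncr1 ran from -0.78 to 0.28 over the 15 B6 mice and from -2.11 to -1.56 over the 10 D2 mice. The ratio of Klre1 to Ncr1 was -1.07 to -0.40 in B6 and -2.70 to -1.94 in D2, and that of Gzmb -1.63 to -0.51 in B6 and -4.42 to -2.65 in D2. For 8 of the 9 members other than Ncr1 every D2 mouse lay below every B6 mouse, Eomes being the exception. Gzma, Prf1 and Nkg7, which were not called by themselves, were among the 8. Of all genes 2.71% did so. The members rose and fell with Ncr1 within groups (r from 0.56 to 0.94), for which the other genes were not chosen. That share is therefore no like comparison, and the count is a description. In D2 controls the spread was narrower on this scale, as the log2 ratio of Klrb1c to Ncr1 had an SD of 0.08 against 0.66 for log2 CPM of Klrb1c. This did not hold in every group. For Klrd1 in B6 controls the SD was 0.27 for the ratio against 0.17 for log2 CPM. Since Ncr1 itself was higher on average in D2, each ratio holds its difference too.

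The 4 lectin receptor members lie among 35 genes of the file between Klrb1a and Klra1. Of the 20 Klr genes there, 14 were lower in D2 controls and 3 higher, with a median difference of -1.15. Of the 15 other genes of the span, 2 were lower and 7 higher (median 0.67). In susceptible mice 14 of the 20 Klr genes were also lower and 3 higher, while of the other genes 0 were lower and 3 higher. Of the 16 Klr genes that are not members, 10 were lower and 3 higher there. Of all genes 12.4% were called lower and 11.3% higher in these mice.

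The Ly49 genes (Klra), which encode receptors for MHC class I, had the largest differences. Klra8, which encodes Ly49H, had 101 to 166 reads in B6 controls and 0 to 4 in D2 controls. Klra14-ps had 42 to 82 against 0 to 2, and Klra4 129 to 183 against 2 to 7. Klra17 went the other way, with 21 to 48 reads in B6 and 97 to 298 in D2 controls. Next to the members, Klrc2 differed by -2.12 (SE 0.25) and Klrb1b by -1.84 (SE 0.31). Reads of both strains had been aligned to GRCm38, which is the B6 sequence, and the Klr genes are close copies of one another, so a lower level in D2 and reads lost or moved by sequence differences cannot be told apart. The reads of Gzmb were aligned to the same sequence, and the part of sequence differences in its level was not tested. Genes of the region other than Klra8, Klra14-ps and Klra4 were named after their values were seen.

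**Figure D3:**
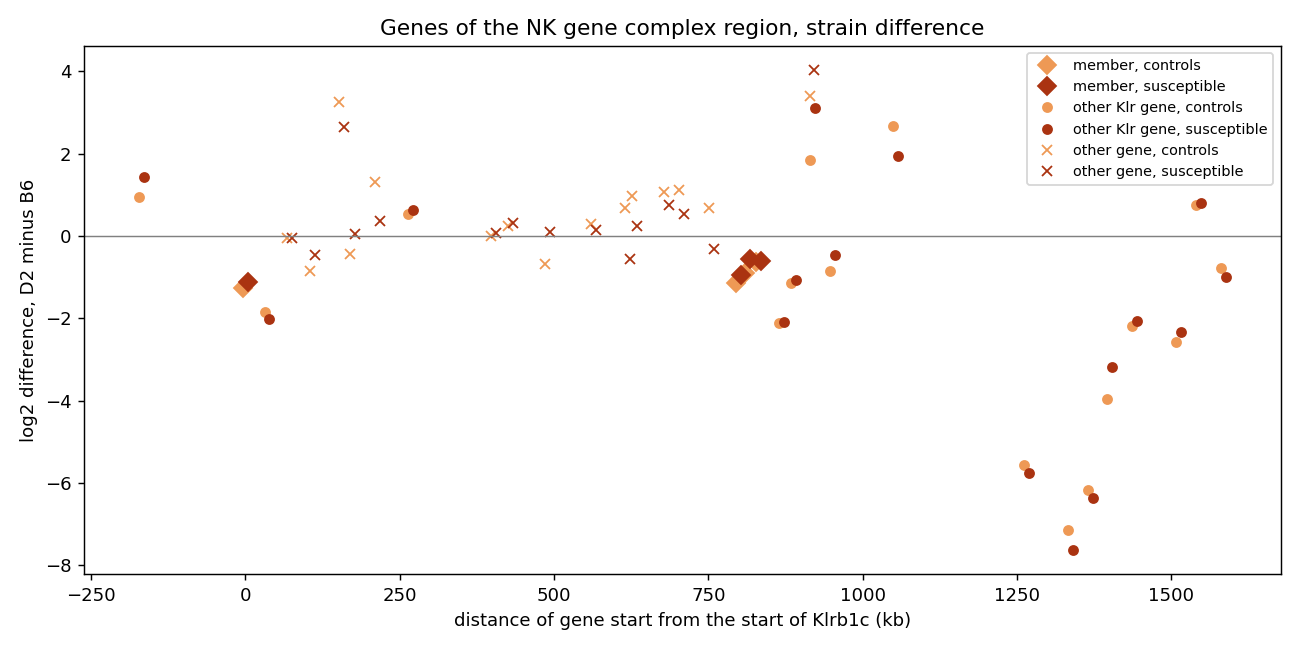
D2 minus B6 difference in log2 CPM (y axis) against the distance of each gene's first annotated base from that of Klrb1c in kilobases (x axis), for 35 genes in controls and in susceptible mice. The 4 members (diamonds) lie between -1.27 and -0.56, less far from 0 than Klra4, Klra8, Klra14-ps and Klra9.

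No member passed the test for an effect of defeat. In B6 mice 0 of 10 members were called in resilient against control mice (background 2.11% of genes), in susceptible against control mice (4.50%) and in susceptible against resilient mice (2.03%), and in D2 mice 0 of 10 in susceptible against control mice (1.57%). No member had an unadjusted p under 0.05 in any of these 4 limma contrasts, against 290, 610, 283 and 225 of all genes in the same order, and no gene of the file had an adjusted p under 0.05. The resilient and susceptible contrasts of B6 share their controls.

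All 10 members had a lower mean in B6 resilient than in B6 control mice (differences from -0.53 to -0.24, median -0.34; median of all genes 0.02), and 10 of 10 also in B6 susceptible mice (-0.36 to -0.17, median -0.24). Below 0 were 46.3% and 46.6% of all genes. Markers of other cells moved beside them. In resilient mice 12 of 12 T cell (median -0.24, 1 called) and 9 of 9 B cell markers (-0.08, 0 called) were below 0. Above 0 were 9 of 9 platelet (0.55), 11 of 11 neutrophil (0.15) and 10 of 10 erythroid markers (0.15), with 0 called. In susceptible mice 9 of 9 B cell markers were below 0 (-0.21, 0 called) and 9 of 9 platelet markers above 0 (0.87, 7 called). The part of these markers in the members' values was not tested. As the members rise and fall together from mouse to mouse, their 10 lower means are not 10 separate observations. Gzma was 6.17, 6.79, 7.00, 6.42 and 6.53 in B6 controls, 6.03, 5.12, 6.22, 6.46 and 6.42 in resilient and 6.10, 6.21, 5.76, 6.83 and 6.26 in susceptible mice. The groups overlapped, and the differences from controls were -0.53 (95% interval -1.15 to 0.08) and -0.35 (-0.96 to 0.26). Klrb1c in B6 resilient mice was 3.37, 3.27, 4.19, 4.05 and 4.32, with mice 1, 2 and 4 below all controls, and differed by -0.52 (-1.10 to 0.06; exact permutation p = 0.0556). Without B6 resilient mouse 2, the lowest of its group for 8 members, 10 of 10 were still below 0 but closer to it (-0.39 to -0.07, median -0.19), with Gzma at -0.30 and Klrb1c at -0.38. Without B6 susceptible mouse 3, 9 of 10 were below 0 in the susceptible contrast (median -0.13). In the fit of the compared groups alone Klrb1c was called, as it was without B6 resilient mouse 5 (-0.64), and without D2 control mouse 3 both Klrb1c and Gzma were. With scaling to total reads the median difference of all genes from B6 controls was -0.164 in resilient and -0.134 in susceptible mice.

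In D2 mice 8 of 10 members had a lower mean in susceptible than in control mice, with differences from -0.31 (Prf1) to 0.02 (Klre1) and a median of -0.21, where 53.5% of all genes were below 0. This direction rested on D2 control mouse 3: without it 8 of 10 members were above 0 (-0.10 to 0.42, median 0.06), and 0 were called in either fit. It also depended on following the labels of D2 control mouse 2 and D2 susceptible mouse 2, whose column names give the other group. The second was below the first for every member, as for Gzmb (-0.17 against 1.71), so exchanging them moves each difference upward. With the groups of the column names 0 members were called. With all mice 11 of 12 T cell, 9 of 9 platelet, 11 of 11 neutrophil and 9 of 9 monocyte markers were below 0. Above 0 were 8 of 9 B cell and 9 of 10 erythroid markers, and 0 of all these were called. Gzma was 5.94, 6.10, 7.70, 6.12 and 5.79 in D2 control and 5.85, 5.68, 6.51, 5.81 and 6.29 in D2 susceptible mice, which overlapped. The effect of defeat was not shown to differ between strains, with 0 of 10 members called for the interaction (background 5.37%). Its largest estimate was 0.33 for Klrd1 (95% interval -0.30 to 0.95), and Klrd1 was called without D2 control mouse 3 (0.54).

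**Figure D4:**
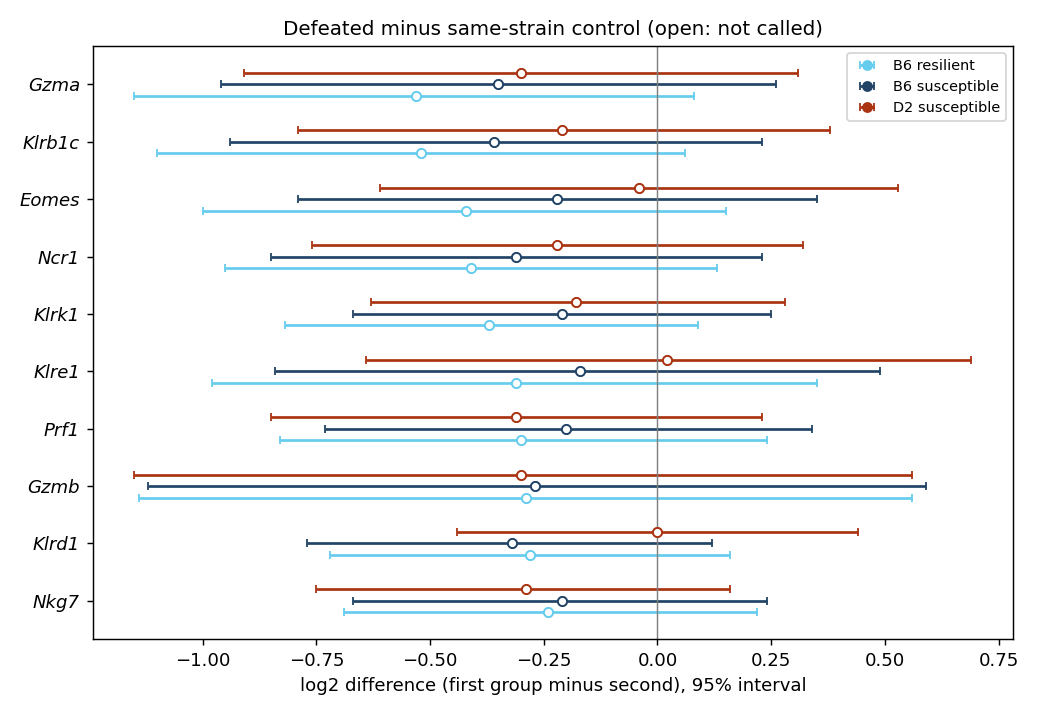
Difference in log2 CPM between defeated and same-strain control mice (x axis, with 95% interval) for each member (y axis), 5 mice per group. Open points did not pass the criteria, all intervals include 0, and the points of both B6 contrasts, which share their controls, lie below 0.

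The members varied together within groups. Over the 25 mice, Pearson's r of their deviations from the group mean was 0.55 to 0.94 for the 45 pairs (median 0.79), a description of values that share a library. B6 resilient mouse 2 was lowest in its group for 8 of 10 members, B6 susceptible mouse 3 for 9 and D2 susceptible mouse 2 for 9. B6 susceptible mouse 4 was highest for 9. In D2 control mouse 3 the summed level of the 10 members was 435 CPM, against 133 to 179 in the other D2 controls, while its T cell markers summed to 355 CPM against 368 to 501. Its platelet (14010 against 3690 to 8068 CPM), neutrophil (3331 against 1610 to 3256 CPM), monocyte (3720 against 2041 to 3464 CPM) and gamma delta T and innate-like markers (48.2 against 21.6 to 45.5 CPM) were also the highest of the group and its B cell markers the lowest (878 against 1041 to 1689 CPM), and their part in the result was not tested.

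The genes most like the mean of the members on this measure were Fasl (r = 0.91), the gene of Fas ligand, Ccl5 (0.89), a chemokine of cytotoxic lymphocytes, Samd3 (0.88), AW112010 (0.87), Klra7 (0.87) and Klrc1 (0.86). Between strains Klra7 (-2.18) and Klrc1 (-1.14), which lie in the NK gene complex, were lower in D2 controls, while Fasl (-0.41), Ccl5 (-0.51), Samd3 (-0.29) and AW112010 (-0.41) did not pass the test.

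**Figure D5:**
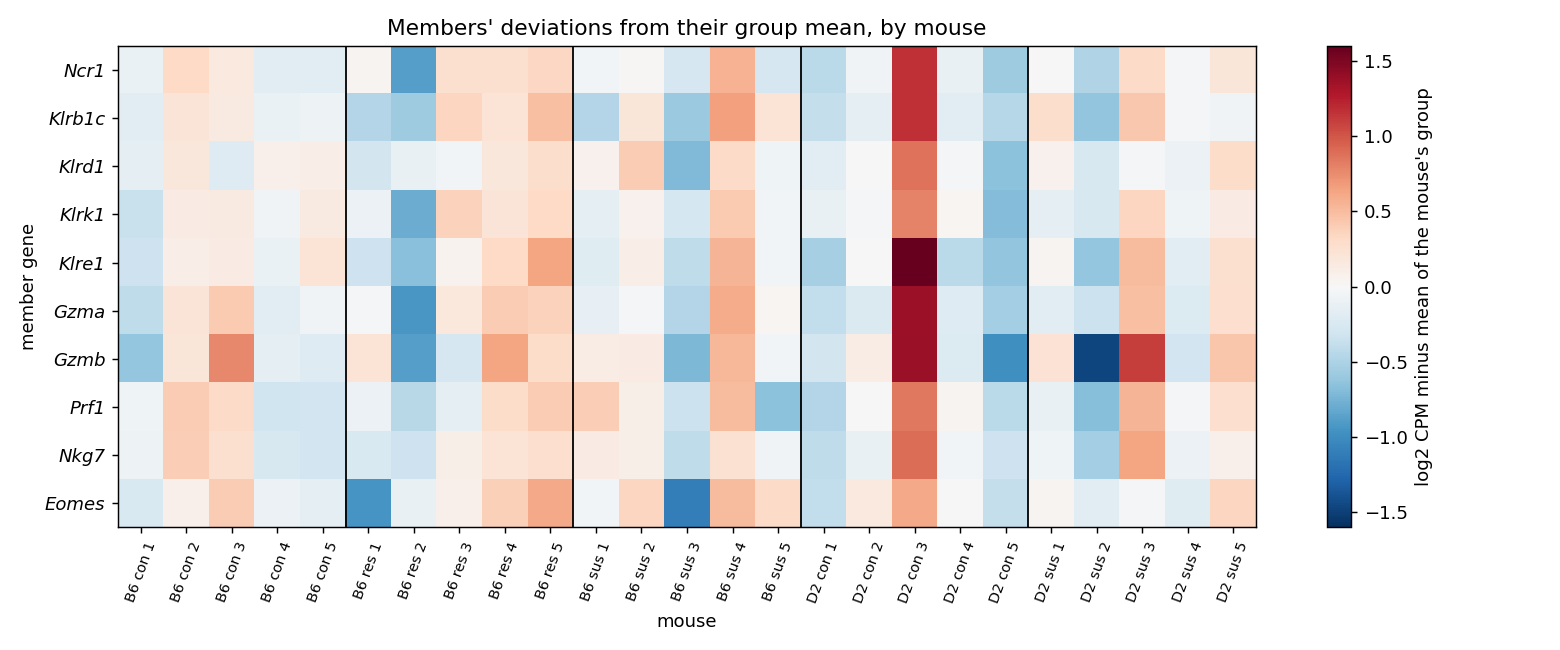
Deviation of log2 CPM from the mean of the mouse's own group (colour) for each member (rows) in each of 25 mice (columns; lines part the groups). Columns tend to hold one colour, and D2 control mouse 3 is above its group mean for all 10 members.

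Other genes of NK cell function were counted by lists. Of the 96 genes of all lists 33.3% were called in D2 controls, against 26.4% of all genes. Of 31 measured NK receptor and adhesion genes, 5 were higher and 11 lower in D2 controls. These 31 include the 16 Klr genes of the NK gene complex that are not members, counted above with 10 lower and 3 higher. The share of the 96 genes therefore repeats that count and holds the same limit of alignment. Of 14 signalling adaptors and kinases 2 were higher, of 11 transcription factors 1 was higher, and of 15 granule genes 1 was higher and 2 lower. Of 19 genes of cytokines, chemokines, their receptors and trafficking 3 were higher and 3 lower. Among them Il15, the survival cytokine of NK cells, was higher in D2 controls (difference 1.34, SE 0.26, adjusted p = 0.000567, limma). Between susceptible mice Il15 differed by 0.19 (SE 0.26, adjusted p = 0.746, limma) and was not called. Of 6 ligand genes 2 were higher and 2 lower. The median difference of these lists lay between -0.22 and 0.14 in controls. Between susceptible mice 7 of the 96 genes were higher in D2 and 23 lower (31.2% called, against 23.7% of all genes).

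With defeat the share of the 96 genes called was near that of all genes, at 3.12% in B6 resilient (2.11% of all genes), 5.21% in B6 susceptible (4.50%) and 2.08% in D2 susceptible mice (1.57%). The genes named next passed the study's criteria by unadjusted p only, and none had an adjusted p under 0.05. In B6 susceptible against control mice, Il15 (0.58), Srgn (0.53), Fcer1g (0.50) and Lat (0.30) were higher and Sh2d1b1 (-1.04) was lower (adjusted p = 0.968 for each, limma). In B6 resilient mice Klri2 (-0.73) and Cd160 (-0.84) were lower. In D2 susceptible mice Il15 and the transcription factor gene Zeb2 were lower.

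Markers of other blood cells also differed between the controls of the strains, and only some of them did so in susceptible mice. Of all genes 26.4% were called between controls and 23.7% between susceptible mice. In D2 controls 6 of 9 platelet markers were higher (median difference 1.09), 8 of 9 B cell markers lower (-0.54), 4 of 10 erythroid markers lower (-0.46) and 4 of 7 eosinophil and basophil markers higher (0.61). Of 11 neutrophil and of 9 monocyte markers 2 each were higher. Of 12 T cell markers 4 were higher and 2 lower, and their sum was 355 to 501 CPM in D2 against 325 to 396 CPM in B6 controls. The markers of gamma delta T and innate-like cells summed to 21.6 to 48.2 CPM in D2 and 3.57 to 6.84 CPM in B6 controls, with 1 of 5 called, Trdc. This sum rested mostly on Trdc, with a mean log2 CPM of 4.91 in D2 and 0.29 in B6 controls. The other markers of the list differed by -0.09 to 1.02. The counts of controls include D2 control mouse 3, and none are given without it. Between susceptible mice 0 of 9 platelet markers were higher in D2 and 2 were lower (median -0.22). Of 9 B cell markers 1 was lower (-0.17), and of 10 erythroid markers 1 was higher and 2 lower (-0.32). Higher there were 3 of 7 eosinophil and basophil markers (0.68) and 2 of 5 gamma delta T and innate-like markers. Neutrophil markers had 2 lower, monocyte markers 1 lower, and T cell markers 4 higher and 2 lower. In B6 susceptible mice 7 of 9 platelet markers were higher than in controls (median 0.87). The part of these markers in the members' values was not tested.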

How the data were processed

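Whole-blood RNA from 25 mice had been sequenced by the authors after ribosomal and globin RNA depletion with a stranded kit. Per the study's methods, reads were aligned to GRCm38 with STAR and counted over exons with HTSeq; the strand setting of the counting is not given in the sources used here. The authors removed low-abundance genes and deposited voom log2 CPM (reads scaled to library size), the values used here. Reads were recovered from these log2 values with each library's effective size, and all 327100 were whole within 0.0001 reads. They served for depth and for alternatives only.

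Groups came from the labels. For 2 D2 mice the column name gives the other group. Replicates are separate mice, numbered here in accession order. All 13084 genes and 25 mice were fitted in 1 limma model (limma 3.58.1, R 4.3.3; empirical Bayes with trend, 5 groups), with calls at p under 0.05 and at least 1.2-fold, the study's criteria, and Benjamini-Hochberg adjusted p over all genes. The fit was tested on simulated data. Exact permutation tests of single members were two-sided over 252 splits. The members and gene lists were chosen with earlier results of these data known. All 10 members are named; from the pathway lists, up to 3 called genes per list with the smallest p and at most 5 per comparison; and the 6 genes most like the members' mean. Klra17, Klra9, Klrc2, Klrb1b and Trdc were named after their values were seen. A gene that this rule would name is not reported here. Alternatives were other scalings, weights, filters, groupings and leaving out each mouse. The mouse titles carry a prefix whose meaning is not given; each prefix belongs to 1 strain, so it and strain cannot be told apart. The blood miRNA and brain files were not used here.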

Additional observations from a re-analysis of the deposited data

Results flagged for a closer look

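The members gave 50 sets of 5 mice, and in 5 of them the highest or lowest mouse was further from the rest than Dixon's critical value of 0.71 for its gap over the range. Chance flags about 1 in 20 sets, and the members of one mouse are not independent. D2 control mouse 3 was the highest of its group in 4 of these, with log2 CPM of 4.26 for Klrb1c, 4.17 for Klre1, 7.70 for Gzma and 4.95 for Nkg7. B6 resilient mouse 2 was the lowest of its group for Ncr1, at 3.23.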

How the results depend on the processing

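The count of members called was recomputed in up to 36 other settings. Among controls of the 2 strains (main count 5) it was 3 with scaling to total reads and 5 to 7 when 1 mouse was left out, the 7 without D2 control mouse 3. Among susceptible mice (main count 5) it was 3 with scaling to total reads, 3 at an adjusted p under 0.05 and 5 to 6 with 1 mouse left out. For B6 resilient against control mice (main count 0) it was 1 in the fit of the compared groups alone and 0 to 2 with 1 mouse left out, and for the interaction of strain and defeat 0 to 1. In the other 3 defeat contrasts it was 0 in every setting run. Of 2500 recomputed single values, 106 changed sign, none of them called in either fit, and 0 called values changed sign. A fit with the title prefix could not be fitted for the strain contrasts. No paired analysis was possible because the blood mice carry no shared numbers across groups. With 5 mice a group, an interval that includes 0 does not show that there was no difference.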
